A study of Mus musculus with 17 samples.

Results

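Neurofilament and neuronal cytoskeleton genes were described in RNA pulled down with tagged ribosomes of neurons from the mouse cerebral cortex. The mice had chronic experimental autoimmune encephalomyelitis (EAE), a model of multiple sclerosis, or were healthy. The group held 10 genes chosen by name and matched to Ensembl identifiers: Nefl, Nefm, Nefh, Ina, Prph, Map2, Mapt, Tubb3, Stmn2 and Actb. They are 10 of 39017 genes in the count table. All 10 passed the filter on low counts, which kept 22242 genes for testing.

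Neurofilaments are rope-like polymers that fill large axons and set their calibre. In neurons of the central nervous system they are built from the light, medium and heavy chains encoded by Nefl, Nefm and Nefh together with α-internexin, encoded by Ina, and the light chain is measured in cerebrospinal fluid and blood as a sign of axonal damage. Beside them run microtubules, which are made of tubulin and are bound by MAP2 in dendrites and by tau in axons, and a network of actin filaments lies under the membrane.

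The mice carried Cre recombinase under a promoter of neuron specific enolase (the rNSEII-Cre line, always inherited from the mother) and the RiboTag allele, which lets Cre fuse an HA epitope to Rpl22, a protein of the large ribosomal subunit. Tagged ribosomes were pulled down from the cerebral cortex with the RNA they carried, and 17 libraries of polyA RNA were read, 1 library per mouse: 4 from male control, 5 from male EAE, 4 from female control and 4 from female EAE mice. All were adult NSE-Cre:RiboTag mice of the C57BL/6J background. EAE mice had been injected with a peptide of myelin oligodendrocyte glycoprotein in complete Freund's adjuvant and with pertussis toxin and were studied in the chronic phase, and control mice were healthy and matched for age and sex. Whole-cortex RNA was not analysed here, and in such libraries fewer cells of a type and less RNA per cell cannot be told apart.

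Male EAE libraries held fewer counts (70613567 to 76768267) than male control libraries (85800542 to 98433383), while female EAE (66155142 to 86691316) and female control libraries (83664876 to 92822398) overlapped. Of the genes tested, edgeR called 4277 higher and 4536 lower in male EAE than in male control mice (48.5% of the calls were higher, or 58.7% when libraries were scaled to total counts alone), and 8 higher and 5 lower in female mice. A gene was called at a false discovery rate (FDR) under 0.1 and a log2 fold change beyond 0.25 in either direction. Long genes stood higher in male EAE mice: the slope of a library's log2 level on log2 gene length ran from -0.177 to 0.0249 in male control and from 0.0271 to 0.141 in male EAE mice, without overlap. Summed markers of astrocytes also did not overlap, at 11400 to 16400 CPM (counts scaled to a library's TMM-adjusted size) in male control and 7690 to 9760 CPM in male EAE mice, with 7 of 10 markers lower. In females these sums overlapped (7750 to 14700 and 7760 to 9280 CPM). Sums of oligodendrocyte markers were 6930 to 7590 CPM in male control and 6710 to 8160 CPM in male EAE mice, with 2 of 10 higher and 2 lower. Summed markers of neurons were 10300 to 11300 CPM in male control and 10700 to 12200 CPM in male EAE mice, with 4 of 8 higher (among them Tbr1 by 0.61 and Gad2 by 0.74 on the log2 scale) and 1 lower, Rbfox3, which encodes NeuN (-0.58). Of 6 markers of layer 5 projection neurons 3 were higher and 2 lower in males. Of 9 markers of T and B cells 4 were higher in males and 1, the antibody light chain gene Igkc, in females. The part of transcript length and of other cell types in the results was not tested. With a gene length offset, which removes a library's trend on length, 9 of 10 astrocyte markers were lower in males. Of the 8 neuron markers 3 were then higher and 1 lower, and of the 6 layer 5 markers 2 were higher and 1 lower. Below, values with that offset are given for members where they change a call or turn a sign, for Prph, and for part of the lists.

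Per kilobase of exon, actin was the most abundant of the 10 RNAs and peripherin by far the scarcest. Actb had a mean level of 710 CPM per kilobase (range 517 to 964 over the 17 libraries), above Tubb3 at 374 CPM per kilobase (303 to 437), and the ranges of these genes did not overlap with each other or with those of the genes below them. Nefl (171), Mapt (164), Nefm (149) and Ina (144 CPM per kilobase) followed with overlapping ranges, so that their order was within the spread between libraries. Stmn2 lay below them at 84.5 CPM per kilobase (74.4 to 97.4). Map2 and Nefh, with means of 28.7 and 19.1 CPM per kilobase, overlapped at 22 to 39.2 and 13.3 to 25.9. Prph had 1.25 ± 0.464 CPM per kilobase (SD, n = 17), and in CPM it ranked at percentile 41.2 of the genes tested, while the other members ranked at percentile 87.5 or higher. These levels divide by the merged length of all annotated exons, which lowers the value of a gene with long alternative exons.

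In male EAE mice 2 of the 10 genes were higher than in male control mice (Nefl and Nefh) and 3 were lower (Prph, Mapt and Actb). Over all genes tested 19.2% were called higher and 20.4% lower in males, so the number of members called was near the background. Their median log2 fold change was -0.09 in males, against 0.02 over all genes. When 1 surrogate variable, a hidden factor estimated from the counts, was added to the fit, 0 members and 7 of all genes were called in males. In female EAE mice Prph alone was called, as lower, where 0.036% of all genes were called higher and 0.0225% lower, and the median of the members was -0.11, against 0 over all genes. This female background depended on the test. DESeq2 called 800 genes higher and 554 lower, edgeR's likelihood ratio test 425 and 214, and limma voom 0 and 0. EAE and control mice did not overlap for 2 members in males (Prph and Actb) and for 1 in females (Prph), compared with 24.4% and 7.43% of all genes tested.

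**Figure D1:**
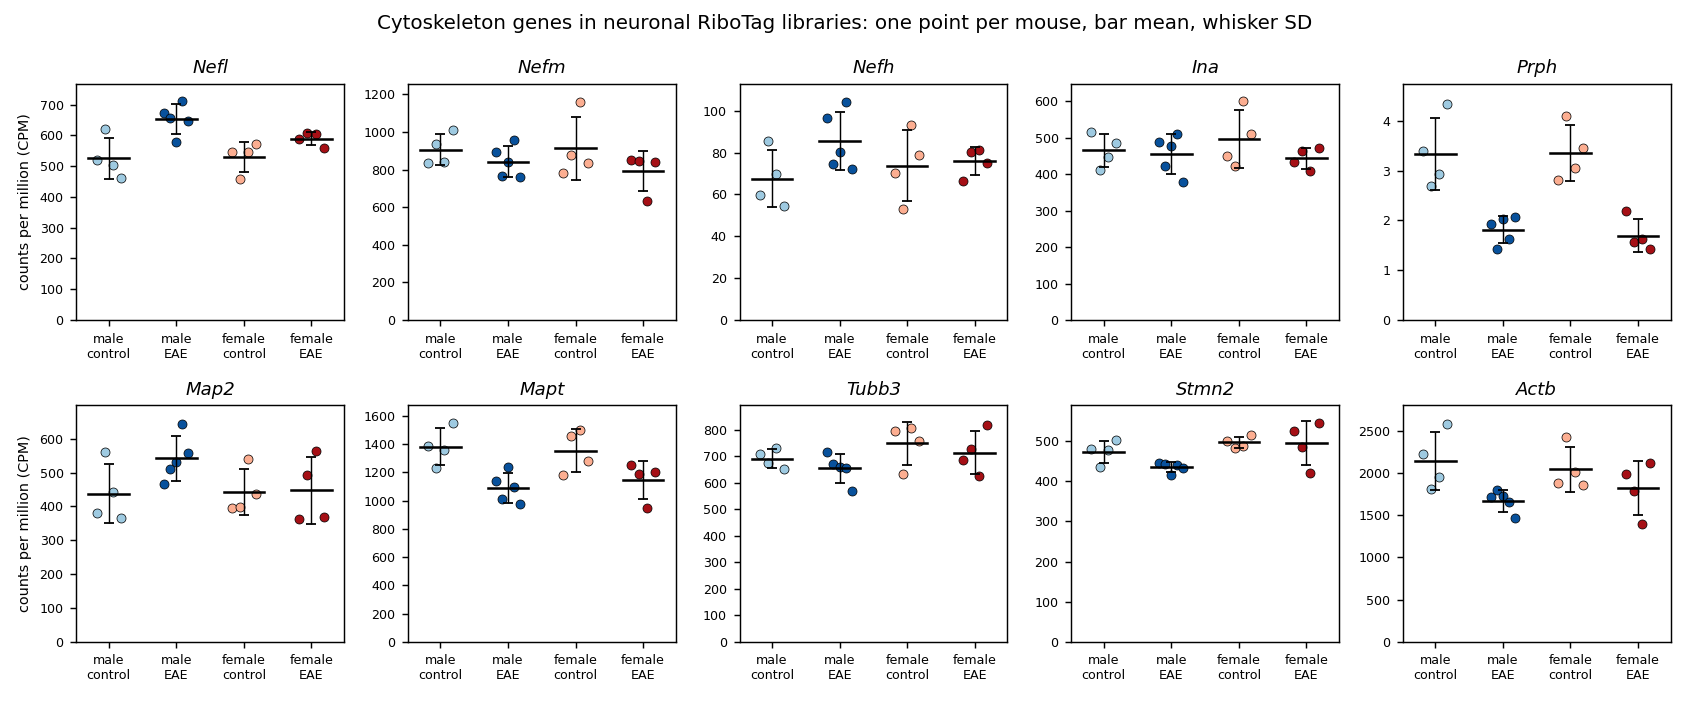
Level of each of the 10 genes in CPM (vertical axes, linear from 0) in the 4 groups (horizontal axis), with 1 point per mouse, a bar at the group mean and a whisker of 1 SD. Prph lay between 2.69 and 4.33 CPM in male control and between 1.43 and 2.06 CPM in male EAE mice, and the other genes overlapped between EAE and control mice except Actb in males.

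Nefl (ENSMUSG00000022055, GRCm38 chr14:68083863-68089095, plus strand) encodes the light chain, on which the other chains depend for assembly. It had 519, 620, 503 and 462 CPM in male control replicates 1 to 4 and 672, 657, 580, 712 and 648 CPM in male EAE replicates 1 to 5. Every male EAE mouse but replicate 3 lay above every male control mouse. The group means were 526 ± 67 (SD, n = 4) and 654 ± 48.2 CPM (SD, n = 5), and the log2 fold change of 0.31 (standard error 0.0906, 95% confidence interval 0.12 to 0.5) passed with an FDR of 0.014 by edgeR's quasi-likelihood test, also without any single library. In females Nefl had 546, 458, 545 and 572 CPM in control mice and 588, 607, 603 and 559 CPM in EAE replicates 1, 3, 4 and 5. These groups overlapped through control replicate 4 and EAE replicate 5, and the log2 fold change of 0.15 (95% confidence interval -0.05 to 0.35) did not pass (FDR 0.361 by edgeR).

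Nefm (ENSMUSG00000022054, chr14:68082590-68124846, minus strand), the medium chain, carries a long tail that spaces neighbouring filaments. It had 837, 936, 841 and 1010 CPM in male control and 893, 764, 841, 955 and 760 CPM in male EAE mice, and the groups overlapped widely. In females it had 783, 876, 1160 and 836 CPM in control and 851, 847, 635 and 839 CPM in EAE mice. Control replicate 3 was the highest and EAE replicate 4 the lowest of all 17 libraries. The log2 fold changes were -0.1 in males (FDR 0.528 by edgeR) and -0.2 in females (FDR 0.354).

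Nefh (ENSMUSG00000020396, chr11:4938754-4948064, minus strand) encodes the heavy chain, the last to appear as axons mature. Male control mice had 59.7, 85.6, 69.9 and 54.7 CPM and male EAE mice 96.4, 74.7, 80.5, 104 and 72.2 CPM, with control replicate 2 inside the range of the EAE mice. Its log2 fold change in males was 0.34 (standard error 0.155, 95% confidence interval 0.02 to 0.67) at an FDR of 0.0967 by edgeR, just inside the threshold. It was still called in 8 of 17 fits that left out a library. The fits that lost it left out male control 1, 3 or 4, male EAE 1 or 4, female control 1 or female EAE 1, 4 or 5, with FDRs of 0.108 to 0.255. In females the means were 73.8 ± 16.8 and 75.8 ± 6.75 CPM (SD, n = 4 each), with a log2 fold change of 0.04 (FDR 0.914 by edgeR).

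Ina (ENSMUSG00000034336, chr19:47014698-47025327, plus strand) encodes α-internexin, which joins the other chains in central axons. Its mean level in males was 466 ± 45.3 CPM (SD, n = 4) without and 456 ± 53.8 CPM (SD, n = 5) with EAE. In females it was 497 ± 78.3 and 444 ± 29.1 CPM (SD, n = 4 each). The groups overlapped in both sexes. Log2 fold changes were -0.03 in males, or 0.05 when libraries were scaled to total counts alone, and -0.16 in females, and neither passed (FDR 0.859 and 0.428 by edgeR).

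Since a ratio of 2 genes within a library does not depend on how libraries are scaled, the counts of the other chains were divided by those of Nefl. The Nefm count per Nefl count was 1.61, 1.51, 1.67 and 2.19 in male control mice and 1.33, 1.16, 1.45, 1.34 and 1.17 in male EAE mice. All male EAE mice lay below all male control mice. The difference was -0.43 on the log2 scale, with p = 0.00794 by a two-sided exact permutation test, the smallest p that 5 mice against 4 allow, and 0.0397 after adjustment over the 10 tests of 5 ratios in 2 sexes. In females the ratio was 1.43, 1.91, 2.12 and 1.46 in control and 1.45, 1.4, 1.05 and 1.5 in EAE mice. Here EAE replicates 1 and 5 overlapped with the control mice, and the difference of -0.35 did not pass (exact permutation p = 0.143, adjusted 0.204). Nefl and Nefm lie on opposite strands and share 1108 exon bases, which are 32.8% of the exon bases of Nefl and 19.2% of those of Nefm. The library kit kept the strand, but whether the counting used it is not given in the sources used here, so reads from the shared bases may have been counted for either gene.

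No difference was detected in the ratio of the heavy to the light chain. The Nefh count per Nefl count was 0.128 ± 0.0127 in male control (SD, n = 4) and 0.131 ± 0.0166 in male EAE mice (SD, n = 5), a log2 difference of 0.03 (exact permutation p = 0.786). The Ina count per Nefl count went from a mean of 0.901 to 0.7 in males and from 0.937 to 0.756 in females. These log2 differences of -0.35 and -0.31 were alike in direction but did not pass (exact permutation p = 0.0794 and 0.0571, adjusted 0.132 and 0.127). Ina shares 456 exon bases, 14.1% of its own, with Nt5c2 on the opposite strand.

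**Figure D2:**
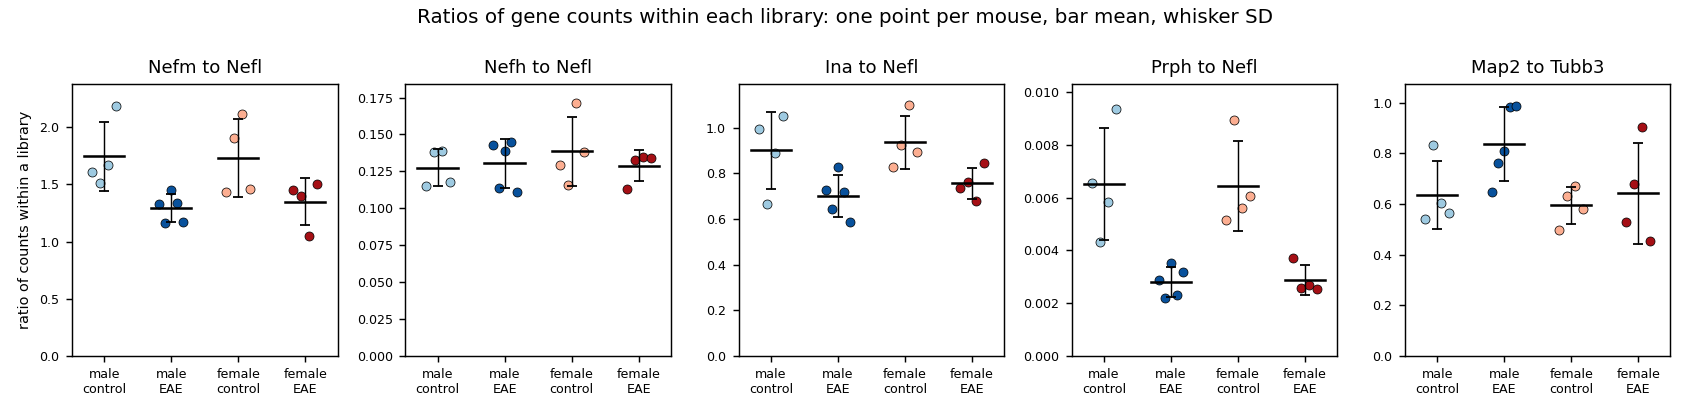
Ratios of counts of 2 genes within a library (vertical axes, linear from 0) in the 4 groups, with 1 point per mouse, a bar at the group mean and a whisker of 1 SD. Nefm per Nefl fell from a mean of 1.74 to 1.29 in males without overlap, and Prph per Nefl was lower in every EAE mouse than in every control mouse of its sex.

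Prph (ENSMUSG00000023484, GRCm38 chr15:99055174-99058978, plus strand) encodes peripherin, an intermediate filament protein known best from peripheral neurons and from central neurons that send axons out of the brain and spinal cord. It was the member with the largest change in both sexes. Its promoter sequence is shown for that reason, beside those of Ina, the filament gene with the smallest log2 fold change in males, and of Tubb3, the β-tubulin. The sequences are the 120 bases before each gene's start in RefSeq (GRCm38.p6, plus strand, 5′ to 3′), which held 4 of the 10 members, and capitals mark the motif TATAAA, searched on both strands. The window of Prph covers chr15:99055054-99055173, Ina chr19:47014561-47014680 and Tubb3 chr8:123411433-123411552.
Prph: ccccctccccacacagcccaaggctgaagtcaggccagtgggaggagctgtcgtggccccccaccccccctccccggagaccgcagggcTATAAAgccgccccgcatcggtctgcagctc
Ina: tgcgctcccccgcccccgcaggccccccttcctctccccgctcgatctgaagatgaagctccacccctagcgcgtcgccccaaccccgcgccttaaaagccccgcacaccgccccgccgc
Tubb3: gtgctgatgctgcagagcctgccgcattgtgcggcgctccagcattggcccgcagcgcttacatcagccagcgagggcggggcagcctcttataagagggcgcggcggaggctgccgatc
Of these windows the one of Prph held the motif, beginning 31 bases before the start, as did 6.34% of 32851 mouse promoter windows of that length. The windows of Ina, Tubb3 and Map2 held no exact match, and near matches to the motif were not searched. Gene starts differ between RefSeq and the annotation used for gene positions. The Tubb3 window lies after position 123411424, where that annotation begins the gene.

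Peripherin RNA had 3.39, 2.69, 2.93 and 4.33 CPM in male control mice and 1.93, 1.43, 2.03, 1.63 and 2.06 CPM in male EAE mice. Every male EAE mouse lay below every male control mouse. These levels rested on 264 to 341 counts per control library and 104 to 157 counts per EAE library. The log2 fold change was -0.87 (standard error 0.174, 95% confidence interval -1.24 to -0.51), a fold of 0.546, at an FDR of 0.00541 by edgeR. It passed without any single library, with a range of -0.98 to -0.71. With a gene length offset the male log2 fold change was -0.65 (FDR 0.00673 by edgeR). Prph has 1999 exon bases. Of all genes with at most 3126 exon bases and a mean log2 CPM above 1, 48.9% were lower in males.

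In female control mice Prph had 2.82, 4.09, 3.05 and 3.46 CPM, and in female EAE mice 2.18, 1.56, 1.62 and 1.42 CPM. The groups did not overlap, and EAE replicate 1 came nearest to the control mice. The log2 fold change of -0.98 (standard error 0.186, 95% confidence interval -1.37 to -0.59), a fold of 0.505, was called at an FDR of 0.0826 by edgeR. The size of the fall stayed between -1.15 and -0.88 when any single library was left out, but the call held in 7 of 17 such fits. It was lost without male control 1 or 3, male EAE 1, female control 2, 3 or 4, or any 1 of the female EAE mice, with FDRs of 0.107 to 0.353. DESeq2 and edgeR's likelihood ratio test gave FDRs of 0.000451 and 0.00122 for it, and limma voom 0.152. With a gene length offset the female log2 fold change was -0.9 (FDR 0.0617 by edgeR).

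Per Nefl count, Prph fell in males from 0.00652 ± 0.00212 (SD, n = 4) to 0.00281 ± 0.00057 (SD, n = 5), a log2 difference of -1.18. The exact permutation p was 0.00794, the smallest possible, and 0.0397 after adjustment. Female mice went from 0.00644 ± 0.0017 to 0.00288 ± 0.000559 (SD, n = 4 each), a difference of -1.15 with p = 0.0286 by the exact permutation test, the smallest that 4 mice against 4 allow, and 0.0952 after adjustment. In both sexes the groups did not overlap. Markers of peripheral and cranial neurons, in which peripherin is abundant, were low: the sum over the 5 tested ranged from 2.05 to 4.79 CPM in the 17 libraries and overlapped between EAE and control mice. In both sexes edgeR and DESeq2 called 0 of the 5. By edgeR 0 of them had an unadjusted p under 0.05 in either sex, and by DESeq2 1 did in females. At such low levels a change could be missed, and the part of these neurons in the fall of Prph was not tested.

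Mapt (ENSMUSG00000018411, chr11:104231390-104332090, plus strand) encodes tau, which binds and stabilises microtubules in axons. It had 1390, 1230, 1360 and 1550 CPM in male control and 1140, 1010, 1240, 1100 and 973 CPM in male EAE mice. Control replicate 2 and EAE replicate 3 overlapped narrowly. The means of 1390 ± 133 (SD, n = 4) and 1090 ± 107 CPM (SD, n = 5) gave a log2 fold change of -0.34 (standard error 0.102, 95% confidence interval -0.55 to -0.13) at an FDR of 0.0168 by edgeR, called without any single library. With a GC offset it was -0.23, under the fold threshold. In females Mapt had 1180, 1460, 1500 and 1280 CPM in control and 1250, 1190, 949 and 1200 CPM in EAE mice. The direction was the same, but the groups overlapped and the log2 fold change of -0.24 (95% confidence interval -0.46 to -0.01) did not pass over all genes (unadjusted p = 0.041, FDR 0.241 by edgeR).

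Map2 (ENSMUSG00000015222, chr1:66175273-66442583, plus strand), the dendritic counterpart of tau, had 381, 560, 442 and 367 CPM in male control and 465, 510, 531, 644 and 559 CPM in male EAE mice. Control replicate 2 lay among the EAE mice. Its log2 fold change in males was 0.31 (95% confidence interval -0.01 to 0.62) and did not pass (FDR 0.121 by edgeR). Without control replicate 2 it was 0.44 and passed at 0.0279, and with a gene length offset it was -0.03. Female control mice had 396, 399, 540 and 436 CPM and female EAE mice 362, 494, 565 and 370 CPM, so that EAE mice lay on both sides of the control mice (log2 fold change 0.02, FDR 0.964).

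Tubb3 (ENSMUSG00000062380, chr8:123411424-123422015, plus strand), the β-tubulin of neurons, had a mean of 690 ± 35 CPM (SD, n = 4) in male mice without and 654 ± 54.7 CPM (SD, n = 5) in those with EAE. In female mice the means were 748 ± 79.8 and 713 ± 79.9 CPM (SD, n = 4 each). Log2 fold changes of -0.08 and -0.07 were not distinguishable from the spread between mice (FDR 0.549 and 0.722 by edgeR). Per Tubb3 count, the Map2 count went from 0.635 to 0.837 in males, a log2 difference of 0.4 that did not pass (exact permutation p = 0.0635, adjusted 0.127), and from 0.594 to 0.641 in females (exact permutation p = 0.8).

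Stmn2 (ENSMUSG00000027500, chr3:8509360-8561606, plus strand) encodes stathmin-2, a tubulin-binding protein of growing and regenerating axons. Male control mice had 480, 436, 477 and 503 CPM and male EAE mice 446, 444, 417, 442 and 433 CPM. These groups overlapped through control replicate 2 alone, and the log2 fold change of -0.12 did not pass (FDR 0.235 by edgeR). In females the means were 497 ± 14 and 495 ± 54.7 CPM (SD, n = 4 each), and EAE mice spread from 421 to 546 CPM around the control mice.

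Actb (ENSMUSG00000029580, chr5:142903115-142906754, minus strand) encodes β-actin, which every cell makes and which is often used as a reference gene. It had 2220, 1810, 1950 and 2580 CPM in male control and 1710, 1800, 1730, 1650 and 1460 CPM in male EAE mice, so the groups did not overlap, though control replicate 2 and EAE replicate 2 lay close together. The log2 fold change was -0.36 (standard error 0.123, 95% confidence interval -0.62 to -0.1) at an FDR of 0.0322 by edgeR. Without male control replicate 4, the highest library, it was -0.24 and did not pass (FDR 0.177), and with a gene length offset it was -0.19 (FDR 0.147). Female control mice had 1880, 2420, 2010 and 1850 CPM and female EAE mice 1980, 1790, 1390 and 2120 CPM. These groups overlapped, with a log2 fold change of -0.16 (FDR 0.481). Actg1, the near-identical γ-actin of non-muscle cells, was counted at 4.64 to 11.3 CPM, against 1390 to 2580 CPM for Actb. How reads shared by near-identical copies were counted is not given in the sources used here, so the level of Actb is uncertain to that extent.

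**Figure D3:**
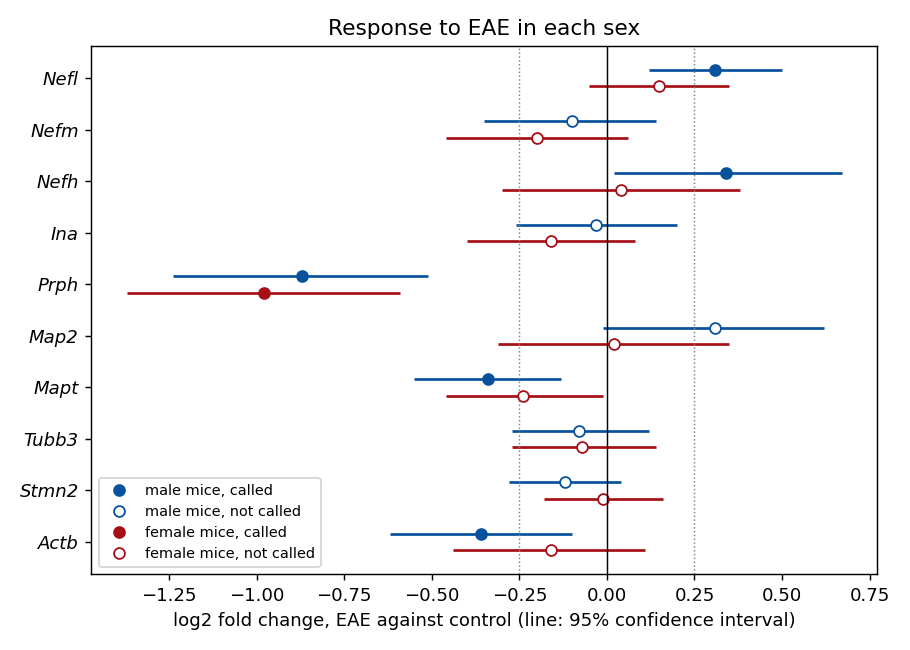
Log2 fold change between EAE and control mice (horizontal axis) for each of the 10 genes, with males in blue and females in red. Lines are 95% confidence intervals, filled points passed the FDR of 0.1 and the log2 fold change of 0.25 marked by dotted lines, and Prph was the only gene filled in both sexes, at -0.87 and -0.98.

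The response was then compared between the sexes directly, since a call in males and none in females does not show that they differ. None of the 10 responses differed between male and female mice by edgeR, with an FDR of 0.807 or higher and 0 members at an unadjusted p under 0.05. Over all genes tested 0% were called, with 0 genes by edgeR's quasi-likelihood test, 933 at an unadjusted p under 0.05, 3 by DESeq2 and 4 by edgeR's likelihood ratio test, none of them a member. For Nefl the difference of males minus females was 0.16 on the log2 scale with a 95% confidence interval of -0.11 to 0.44, and for Nefh 0.3 (-0.17 to 0.77). That of Map2 was 0.29 (-0.16 to 0.75) and that of Actb -0.19 (-0.57 to 0.18). The fall of Prph differed by 0.11 (-0.42 to 0.64), and that of Mapt by -0.1 (-0.42 to 0.21). The intervals include 0 for every member and also include values as large as the male log2 fold changes themselves for Nefl, Nefh, Map2, Mapt and Actb, so neither a shared nor a sex-specific response of these genes was shown. For Prph the interval did not reach 0.87, the size of the male fall.

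Levels without EAE were compared next, and no member was called between female and male control mice. Log2 differences between female and male control mice ran from -0.07 to 0.13 over the members, with 0 members at an unadjusted p under 0.05 and 0 called by DESeq2. Of all genes tested 0.0674% were called by edgeR.

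Within groups some pairs of members varied together and others ran against each other. Over the 17 deviations of a library from its group mean, Nefl varied with Nefh (Pearson r = 0.763) and with Map2 (0.572), Nefm with Mapt (0.744) and Ina (0.656), and Mapt with Actb (0.786). Ina also varied with Tubb3 (0.631). Nefl and Nefm were nearly unrelated (0.0243), and Map2 ran against Stmn2 (-0.747) and Actb (-0.715). Prph ran against Nefh (-0.605) and Nefl (-0.593). These points share library depth and the slope on gene length, so the values are a description and were given no test. Across all 17 libraries the genes whose log2 level followed Prph most closely were Fndc4 (Pearson r = 0.936, Spearman rho = 0.897), Nfkbia, the inhibitor of NF-κB (0.935 and 0.912), Btbd17 (0.933 and 0.912), Mob2 (0.923 and 0.904) and Smox, which oxidises spermine (0.923 and 0.865). Within groups their correlations with Prph were 0.739 to 0.835. Those closest to Nefl were the transcription factor gene Tshz3 (Pearson r = 0.963, Spearman rho = 0.968), Dennd4a (0.96 and 0.953), Nup133 of the nuclear pore (0.958 and 0.968), the neuronal splicing factor gene Nova1 (0.957 and 0.919) and Rasgrf1 (0.956 and 0.946), with within-group correlations of 0.899 to 0.93. These were the highest values among 13452 genes.

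Other genes of the cytoskeleton were followed in 8 lists. Of their 122 genes tested, 27 were higher and 34 lower in male EAE than in male control mice, against 19.2% and 20.4% of all genes tested, the background for each list count in males. The numbers were 33 and 29 when libraries were scaled to total counts alone, 15 and 30 with a gene length offset, 18 and 24 without male control replicate 4, and 0 and 0 with 1 surrogate variable. Over the whole table the main fit called 4277 higher and 4536 lower in males. In the same order these settings called 5167 and 3633, 4340 and 3834, 2979 and 2916, and 5 and 2. In female mice edgeR called 0 of the 122, with 30 at an unadjusted p under 0.05 and 8 called by DESeq2. Of all 22242 genes tested, 4415 had an unadjusted p under 0.05 by edgeR in females and DESeq2 called 1354. The list counts lay near those shares. None of the 122 differed in its response between the sexes by edgeR.

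Of 15 tubulins 5 were lower and 0 higher in males, with a median log2 fold change of -0.18 (-0.07 in females). With a gene length offset 3 were lower and 1 higher, and the median was 0.02. Tuba1b, an α-tubulin, had 115 ± 19.9 CPM (SD, n = 4) without and 61.4 ± 10.1 CPM (SD, n = 5) with EAE, and Tubb2b, a β-tubulin of young neurons, fell by 0.85 on the log2 scale (FDR 0.00541 by edgeR). Tubulin copies are much alike, so their counts carry the same limit as those of Actb. Of 24 microtubule-associated proteins 7 were higher and 4 lower, shares not far from the 19.2% and 20.4% of all genes. Camsap2 and Camsap1, which protect microtubule minus ends, rose by 0.75 and 0.45, while Map1b, a protein of growing axons, fell from 1640 ± 212 (SD, n = 4) to 1080 ± 217 CPM (SD, n = 5) and Mapre1, which tracks plus ends, fell by 0.48. With a gene length offset 3 of these genes were higher and 8 lower. Among 8 stathmins and severing enzymes, the katanin-like Katnal1 and spastin (Spast) were higher (0.38 and 0.35, not called with a gene length offset), and Katna1, Stmn3 and Stmn4 lower (-0.59, -0.45 and -0.36). Stmn3 was not called with that offset either (-0.15).

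Of 28 genes of actin and its regulators 15 were lower and 6 higher in males, with a median of -0.27 (-0.07 in females), where 20.4% of all genes were lower. Of the 28, 15 had at most 3126 exon bases, and 13 of those 15 were lower. Of all genes of that length with a mean log2 CPM above 1, 48.9% were lower. With a gene length offset 10 of the 28 were lower and 5 higher, and without male control replicate 4 there were 10 lower and 6 higher. Marcksl1, which links actin to the membrane, fell from 174 ± 59.1 (SD, n = 4) to 85.1 ± 12.5 CPM (SD, n = 5). Tmsb10, a thymosin that holds actin monomers, fell by 1.02 on the log2 scale (FDR 0.00541 by edgeR). Add2, an adducin that caps filaments, and Wasf1, an activator of filament branching, rose by 0.71 and 0.64. Spectrins, ankyrins and cytolinkers, which tie the filaments to the membrane and to each other, had 5 higher and 0 lower of 13, Sptbn1 and Dst by 0.44 and 0.43. With a gene length offset 0 of that list were higher and 1 was lower, and without male control replicate 4 there was 1 higher and 0 lower.

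Of 18 kinases and phosphatases that act on tau and neurofilaments 5 were higher and 3 lower in males, near the shares of 19.2% and 20.4% over all genes, with a median of 0.05. Gsk3b, a main tau kinase, rose from 182 ± 20.9 (SD, n = 4) to 259 ± 30 CPM (SD, n = 5), and Ttbk2, a tau tubulin kinase, rose by 0.58. Mark2 and Cdk5, kinases of the same proteins, fell by 0.45 and 0.37, and Cdk5 was not called with a gene length offset (-0.17). Among 8 other intermediate filament genes Synm, encoding synemin, was the only one called, with a rise of 0.47. Of 8 genes of the response to axon injury 4 were lower and 1 higher in males (median -0.44, and 0.03 in females). Gadd45a, a stress-response gene, and the neuropeptide gene Npy fell by 0.75 and 0.51, and Npy was not called with a gene length offset or without male control replicate 4. Without that replicate 1 of the 8 was lower and 1 higher.

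**Figure D4:**
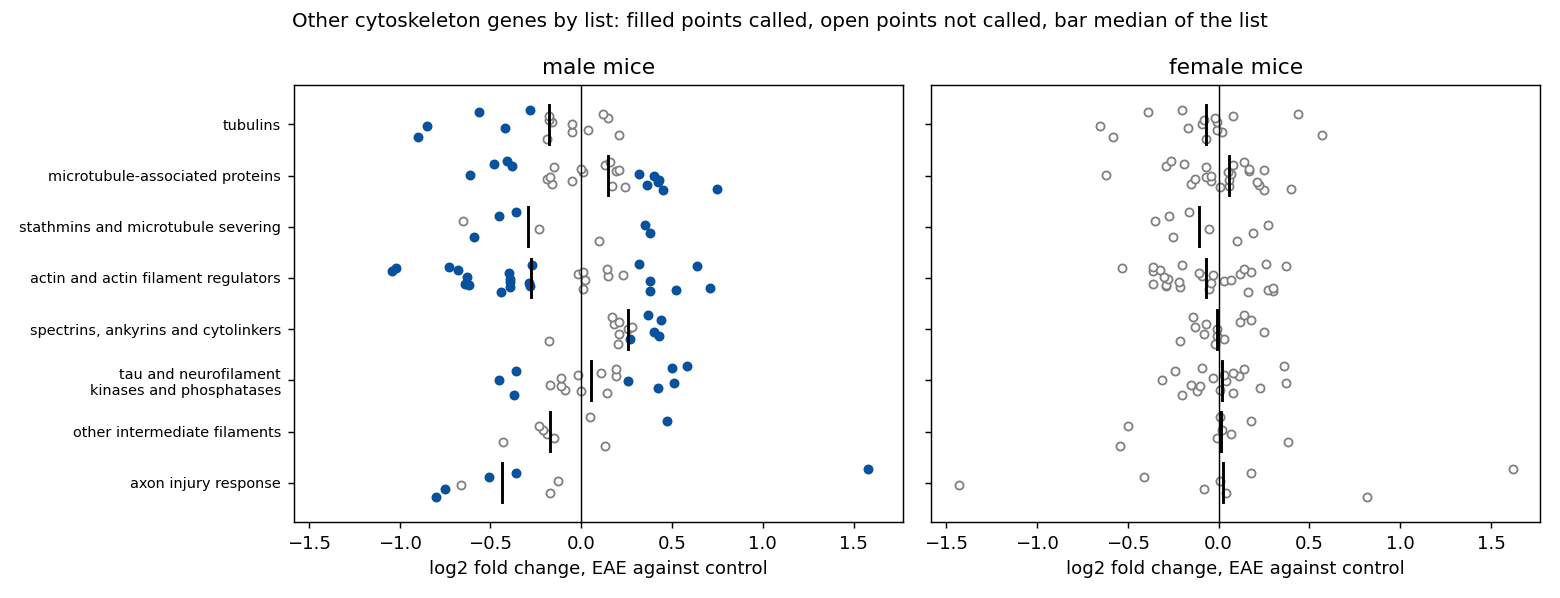
Log2 fold change between EAE and control mice (horizontal axes) of 122 genes in 8 cytoskeleton lists (vertical axis), males left and females right. Filled points were called by edgeR, open points were not, and black bars mark the list medians. In males the spectrin list lay mostly to the right with 5 called higher, the actin list mostly to the left with 15 called lower, and in females no point is filled.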

How the data were processed

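RNA pulled down with tagged neuronal ribosomes was sequenced for 17 mice. The deposited values were raw counts per Ensembl gene. The authors demultiplexed reads (bcl2fastq 2.17), checked them (FastQC), trimmed them (Trimmomatic), aligned them to mm10 and counted them with QuasR, and how strand and shared reads were handled is not given in the sources used here. Of 39017 genes, 37607 were matched to a symbol. Total counts were 66155142 to 98433383 per library.

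The low-count filter, the use of edgeR and the thresholds followed the study, whose edgeR test and scaling are not given in the sources used here. Genes with at least 1 count in at least 9 libraries were scaled by TMM and fitted by edgeR's quasi-likelihood test (edgeR 4.0.16, R 4.3.3) with 1 mean per group over all 17 libraries, Benjamini-Hochberg adjustment over 22242 genes, and thresholds of 0.1 (FDR) and 0.25 (absolute log2 fold change). The script was tested on simulated data. CPM used TMM-scaled library sizes. Ratios of counts were tested by two-sided exact permutation of libraries, called at an adjusted p of 0.1. Pearson correlations used log2(CPM + 0.5) for genes with a mean log2 CPM above 1. Promoter windows came from RefSeq (GRCm38.p6) and gene positions from the GRCm38 annotation.

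The members and lists were chosen with earlier results of these data known. The genes named were the 10 members, in each cytoskeleton list the 2 largest rises and 2 largest falls among genes called in males with a mean log2 CPM above 1, the 5 genes most correlated with Prph and with Nefl, and markers of cell types beside a result. Stmn4 and Actg1 were named after their values were seen.

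Alternatives were total count and median ratio scaling, DESeq2 1.42.0, edgeR's likelihood ratio test, limma voom (limma 3.58.1), no filter, a mean log2 CPM above 1, offsets for gene length or GC content (splines of 5 degrees of freedom), 1 surrogate variable (sva 3.50.0), a replicate block, each sex alone, each library left out, and both outlying controls (male control 4 and female control 2) left out. No pair of libraries within a group agreed within sampling noise (chi-square per degree of freedom of 21.3 or more in 28 pairs). Separate mice are given by the labels, and no batch or date is.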

Additional observations from a re-analysis of the deposited data

Results flagged for a closer look

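In each group the highest and the lowest mouse were compared with the rest by the gap to the nearest other mouse relative to the range, for 15 quantities (the levels of the 10 genes and the 5 ratios) in 4 groups. Of these 60 groups 3 held a mouse that stood apart, and chance alone gives about 1 in 20. Female EAE replicate 4 had a Nefm level of 635 CPM, where the other female EAE mice had 839 to 851 CPM. Female EAE replicate 1 had a Nefh count of 0.113 per Nefl count, with 0.133 to 0.135 in the other 3 mice. The same mouse had a Prph count of 0.00371 per Nefl count, with 0.00254 to 0.00268 in the others, and still lay below all female control mice.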

How the results depend on the processing

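Of the calls in males, Nefl and Prph held in all 17 fits without a library and in 12 of 13 other settings, Mapt in 17 and 11, Actb in 16 and 10, and Nefh in 8 and 10. The exception for Nefl and Prph was the fit with 1 surrogate variable, in which 0 members and 7 genes of the whole table were called in males (Nefl 0.07, Prph -0.44, Mapt -0.03) and the signs turned for Nefm (0.08), Nefh (-0.03), Ina (0.05), Map2 (-0.09), Stmn2 (0) and Actb (0.08) in males and for Nefh (-0.16), Map2 (-0.23), Stmn2 (0.05) and Actb (0.06) in females. The cause of these changes was not tested. Map2 in males was called with total count scaling (0.38), DESeq2 (0.32), limma voom (0.32) and a mean log2 CPM above 1 (0.33), and Stmn2 in males with a GC offset (-0.32). Nefh was not called without a filter (FDR 0.1). Signs turned with total count scaling for Ina in males (0.05) and Stmn2 in females (0.05), with a gene length offset for Ina (0.08), Map2 (-0.03) and Tubb3 (0.14) in males and Map2 (-0.13) and Tubb3 (0.01) in females, with a GC offset for Nefm (0.07), Ina (0.12) and Tubb3 (0.09) in males and Map2 (-0.02) and Tubb3 (0.04) in females. None of the values with a turned sign passed the test. Without both outlying controls 3 members were called in males (Nefh 0.27 and Actb -0.24 lost), 0 members and 0 genes in females, and the signs turned for Ina in males (0.01) and for Nefh (-0.09) and Map2 (-0.03) in females. Prph in females, and with it the only female member call, was lost there (FDR 0.125), with limma voom (0.152), a mean log2 CPM above 1 (0.132), a GC offset (0.121) and each sex alone (0.127), each leaving 0 members called. The number of genes called in females was 13, and 23 with total count scaling, 1354 with DESeq2, 639 with the likelihood ratio test, 0 with limma voom and with a mean log2 CPM above 1, 28 without a filter, 33 with a gene length offset, 60 with 1 surrogate variable and 36 with each sex alone. Between control mice of the 2 sexes it was 15, and 57, 61, 6 and 50 with DESeq2, the likelihood ratio test, a mean log2 CPM above 1 and 1 surrogate variable. With a gene length offset the ratios of Nefh to Nefl in males (-0.03) and of Map2 to Tubb3 in males (-0.17) and females (-0.15) turned.

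When 1 library was left out, 3 to 6 members were called in males and 0 to 1 in females, with 5895 to 9748 and 0 to 177 genes of the whole table, and 9 to 19 genes between control mice. Log2 fold changes ranged from -0.1 to 0.02 for Ina and 0.24 to 0.44 for Map2 in males, and from -0.09 to 0.17 for Nefh, -0.13 to 0.13 for Map2 and -0.06 to 0.04 for Stmn2 in females. Log2 ratios ranged from -0.02 to 0.08 for Nefh to Nefl, -0.49 to -0.27 for Ina to Nefl and 0.33 to 0.54 for Map2 to Tubb3 in males, and from -0.17 to 0.01 for Nefh to Nefl and -0.11 to 0.22 for Map2 to Tubb3 in females.

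The groups share replicate numbers, and the labels do not say whether these pair the mice. Deviations of same-numbered mice correlated between -0.568 and 0.131 in males and between -0.373 and 0.525 in females. They were not compared with those of differently numbered mice, so pairing was not tested. With a replicate block 0 members and 4 genes were called in females (Prph -0.81, FDR 0.569), 3 genes differed between control mice, and signs turned for Ina in males (0.03) and Nefh in females (-0.08). With that block the paired ratios of Nefm to Nefl (-0.39) and Prph to Nefl (-1.24) in males and Prph to Nefl in females (-0.92) had an adjusted p of 0.312, where 4 or 3 pairs cannot pass. Depth limits Prph most, which rested on 99 to 341 counts per library.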
